A study of Mus musculus with 4 samples.

Results

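Transcript signals of interferon beta (Ifnb1) and 8 interferon regulatory factors (Irf1, Irf2, Irf3, Irf4, Irf5, Irf7, Irf8 and Irf9) were compared between mouse macrophages given LPS with immune complexes and macrophages given LPS alone. The members were listed by gene name, and every probe set was taken whose platform annotation names 1 of these genes and no other. All 9 of the 9 listed genes were found, with 15 probe sets, among 18193 genes named by the array, and all 15 passed the filter on low signals. Macrophages were grown from bone marrow for 7 days with 20% L-cell conditioned medium, which supplies M-CSF, and kept overnight without it. The LPS plus immune complexes group (2 arrays) was primed overnight with 100 U/ml of interferon-gamma and, after a wash, received 10 ng/ml of LPS and immune complexes (antigen with bound antibody, which engages Fc gamma receptors) for 2 h. The LPS group (2 arrays) had the same priming, recorded as 16 h, and the same LPS dose without the complexes. All 4 samples therefore carry interferon-gamma and LPS, and no unstimulated or unprimed cells were analysed here. The labels give neither mouse strain nor the antigen and antibody of the complexes, and they do not say that replicates 1 and 2 came from separate animals or cultures, so the spread behind each p-value may be technical.

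Interferon beta is secreted early after TLR4 senses LPS, when the TRIF adaptor and the kinase TBK1 activate IRF3, which binds the Ifnb1 promoter together with NF-kB and AP-1 family factors. The secreted protein acts on the receptor pair IFNAR1 and IFNAR2, and the signal, read at DNA by a complex that holds IRF9, turns on antiviral genes, among them Irf7, whose product feeds further interferon production. Interferon-gamma induces Irf1 and Irf8 through GAS elements, so primed macrophages are known to carry both factors before LPS is added. IRF4 and IRF8 are close relatives that bind DNA with the ETS factor PU.1.

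The promoter letters that these factors are known to read are shown for the 4 members whose window held an IRF, GAS or kB match, because binding at such letters is how the family is known to act on the ligand gene and how interferon signals are known to reach the factor genes. Each line gives 100 of the 250 bases before the start site annotated by RefSeq on GRCm38.p6, 5′ to 3′ on the gene's strand, with capitals marking matches to AANNGAAA (the IRF core), TTCNNNGAA (the GAS element) or GGGAAATTC (the start of a kB site).
Ifnb1, chr4:88522864-88522963, minus strand: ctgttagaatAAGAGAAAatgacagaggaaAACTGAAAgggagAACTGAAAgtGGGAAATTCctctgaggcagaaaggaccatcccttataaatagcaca
Irf1, chr11:53769914-53770013, plus strand: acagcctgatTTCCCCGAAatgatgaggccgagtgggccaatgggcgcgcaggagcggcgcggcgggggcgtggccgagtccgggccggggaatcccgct
Irf2, chr8:46739495-46739594, plus strand: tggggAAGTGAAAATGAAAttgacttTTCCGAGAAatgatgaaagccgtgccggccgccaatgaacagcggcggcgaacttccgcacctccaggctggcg
Irf8, chr8:120736177-120736276, plus strand: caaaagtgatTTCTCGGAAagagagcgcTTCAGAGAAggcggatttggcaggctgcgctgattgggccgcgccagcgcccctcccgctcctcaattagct

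Both strands were searched over the 250 bases of each of the 9 promoters, and where the table holds more than 1 promoter of a gene the one at the gene's outermost start was used. The single promoters listed for Irf5 and Irf7 belong to start sites inside the annotated gene, so the whole Irf5 window and part of the Irf7 window lie within the gene. The Ifnb1 window held 3 IRF cores, beginning at -159, -139 and -126 from the annotated start site, just before the kB match at -116. The 2 IRF cores of Irf2 overlap each other. Irf1 held 1 GAS match at -90, Irf2 held 1 at -224, and Irf8 held 2, at -171 and -153. The windows of Irf3, Irf4, Irf5, Irf7 and Irf9 held none of these 3 motifs. TATAAA, the TATA box, was found at -82 and -210 in Ifnb1 and within 31 bases of the start site in Irf4, Irf7 and Irf8, and 12.4% of all promoters held it. Over all 32841 promoters of this length in the table, 21.3% held an IRF core, 7.02% a GAS match and 0.216% the kB letters. A match is a description of letters, and binding was not measured here.

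**Figure D1:**
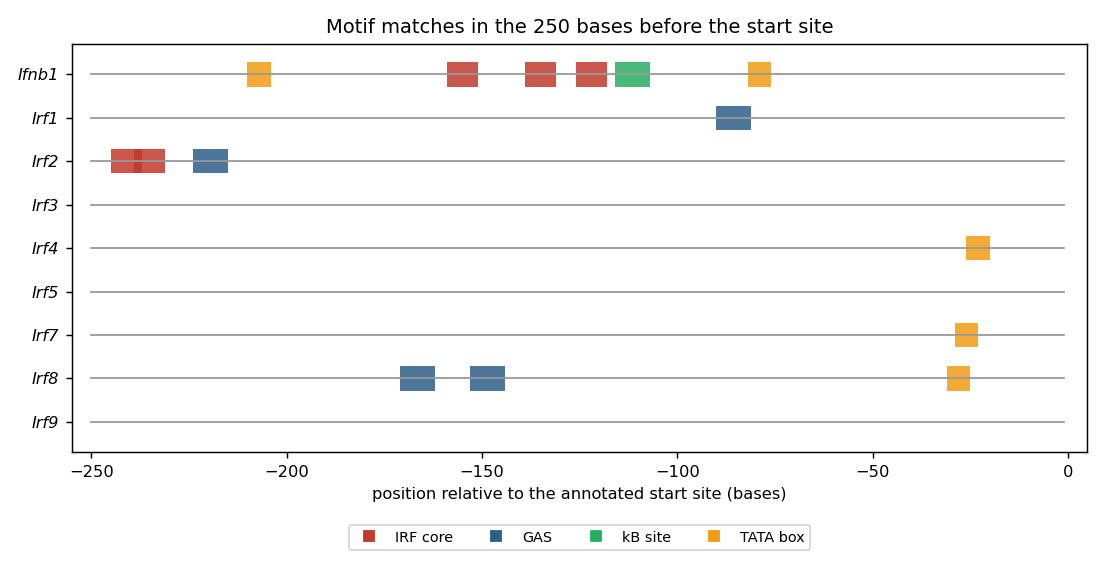
Motif matches in the 250 bases before 1 annotated start site of each member, with position in bases from that site on the horizontal axis and 1 line per gene. Boxes mark IRF cores, GAS matches, the kB site and TATA boxes; the 3 IRF cores and the kB site of Ifnb1 lie next to each other between -159 and -108, and Irf3, Irf5 and Irf9 have no box.

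The values are MAS 5.0 signals, on a linear scale, as the authors deposited them. Each array was scaled to the same trimmed mean of 500, yet the first LPS plus immune complexes array stood apart. Its 5th percentile was 28.1 against 3.3 to 7.9 on the other 3 arrays, and its median 155.8 against 68.4 to 88.6. Over tested probe sets its Pearson r was 0.886 with the second array of its group. With LPS replicates 1 and 2 it was 0.908 and 0.873. The second array with immune complexes had r = 0.965 with LPS replicate 2 and 0.935 with LPS replicate 1. Between the LPS arrays r was 0.933. Differences of the dim member probe sets are given with and without the first array with immune complexes. All 7 listed macrophage markers passed the filter, with signals from 729.7 to 46505.3. Among markers of B, T and NK cells no signal was above 284.6. Markers of neutrophils and fibroblasts read at most 307.5 and 161.8, both on LPS plus immune complexes replicate 1, and 2 of each list passed the filter. Of 6 dendritic cell markers, Siglech and Flt3 lay below the filter, with signals of at most 63.3 and 95.4. The other 4 passed it, with signals of at most 161.9 for Ccr9, 90.6 for Xcr1, 311 for Zbtb46 and 1223.8 for Tcf4, which is also expressed elsewhere. Zbtb46 read 311 and 57.4 with immune complexes and 95.3 and 55.7 with LPS, and its part in the results below was not tested. Lymphocytes and dendritic cells also express Irf4 and Irf8. In these bulk samples fewer cells of a type and less RNA per cell cannot be told apart.

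Ifnb1 and Irf4 had higher signals with immune complexes and Irf8 had lower ones, in each of the 4 possible pairings of the arrays across groups and, where a second probe set existed, on both. By brightest probe set Irf2, Irf3 and Irf7 were also lower in all 4 pairs. Among all 12891 tested genes 13.2% were higher and 13.1% lower in all 4 pairs. Among those with a mean signal of 1000 or more, 9.92% were higher and 22.7% lower. None of the 15 member probe sets passed the test, which was limma over 27022 probe sets, called below a Benjamini-Hochberg adjusted p of 0.05. Every member probe set had an adjusted p of 1, and 0.0518% of all tested probe sets were called in the same fit. At an unadjusted limma p under 0.05 there were 5 member probe sets, 1 of Ifnb1, 2 of Irf4 and 2 of Irf8. The share over all tested probe sets was 2.81%. The dimmer Irf4 probe set passed the filter only through the group with immune complexes. With 2 arrays per group an exact permutation test of a single gene cannot go below p = 0.333, so none was used.

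**Figure D2:**
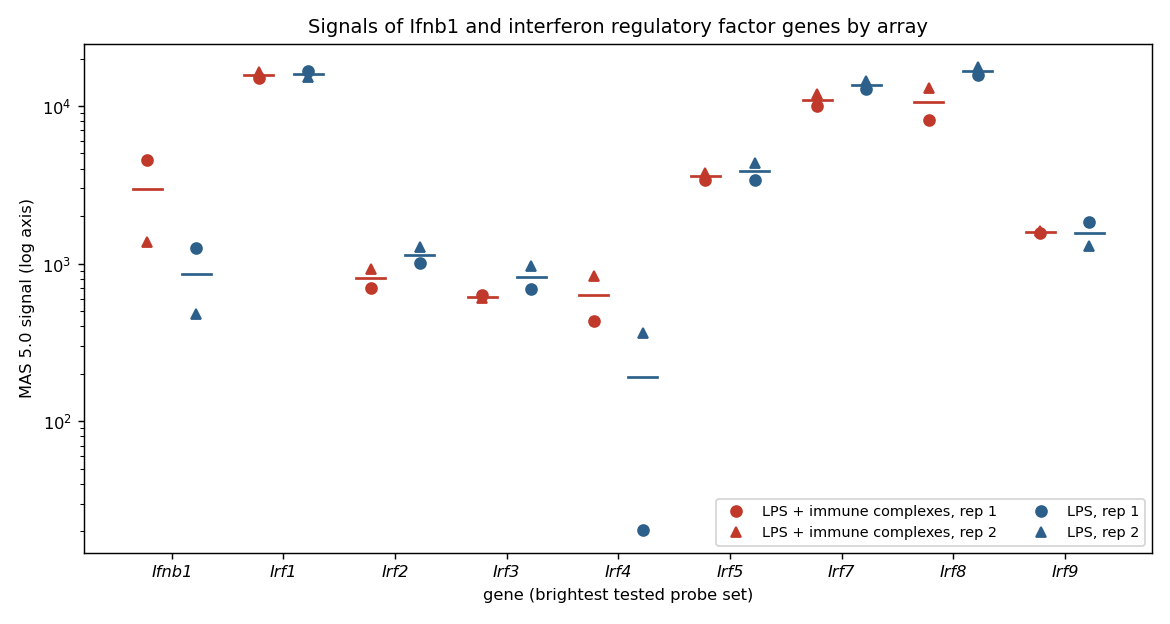
MAS 5.0 signal on a log axis for the brightest tested probe set of each gene, with LPS plus immune complexes arrays in red to the left of LPS arrays in blue. Circles are replicate 1, triangles replicate 2, and bars group means; Ifnb1 and Irf4 lie higher with immune complexes, Irf2, Irf3, Irf7 and Irf8 lie lower, and Irf1, Irf5 and Irf9 overlap.

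The ligand gene Ifnb1 had signals of 4574.3 and 1373.3 in LPS plus immune complexes replicates 1 and 2, against 1253 and 476.9 in LPS replicates 1 and 2. The groups did not overlap, but the second array with immune complexes lay only just above the first LPS array. Replicate 1 was above replicate 2 in both groups, 3.33-fold with immune complexes and 2.63-fold with LPS. Within a replicate number the signal with immune complexes was 3.65-fold that of LPS for replicate 1 and 2.88-fold for replicate 2. On the log2(signal + 32) scale the difference was 1.65 ± 0.57 (SE, n = 2 arrays per group), a 3.15-fold higher mean, with limma adjusted p = 1. Without LPS replicate 1, the higher of the LPS arrays for this gene, the difference was 2.32, and without LPS_IC replicate 1 it was 0.80. Without LPS_IC replicate 2 it was 2.51, and without LPS replicate 2 it was 0.99. The size of the Ifnb1 difference thus moved by more than its standard error with the array left out. The direction was the same in each of these 4 fits, which leave 1 array in a group.

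Irf3 encodes the factor that TBK1 phosphorylates to start Ifnb1 transcription, and its 4 probe sets disagreed. The brightest read 629.1 and 602.2 with immune complexes, against 687.8 and 966.5 with LPS, a log2 difference of -0.39 ± 0.40, and -0.15 without LPS replicate 2. The next read 175.8 and 131.1 with immune complexes, against 291.9 and 243.6 with LPS, a log2 difference of -0.70 ± 0.48, and -0.87 without LPS_IC replicate 1. These 2 were lower in all 4 pairs, the third overlapped between groups, and the dimmest was higher in all 4 pairs. The dimmest read 315.4 and 49.9 with immune complexes and 48 and 7.7 with LPS. Replicate 1 thus exceeded replicate 2 by 6.32-fold and 6.23-fold in the 2 groups. The LPS mean of this probe set, 27.85, lay below the filter limit of 69.7, so it passed only through the group with immune complexes. Its log2 difference was 1.58 ± 1.01, and 0.54 without LPS_IC replicate 1, whose low signals are raised. The third had 201.9 and 76.3 with immune complexes and 120.3 and 138.5 with LPS, a log2 difference of -0.02 ± 0.62, and -0.57 without LPS_IC replicate 1. For the gene as a whole no direction can be given, since the probe sets disagree.

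Irf7, which amplifies interferon production after the first wave, read 10050.2 and 11824 with immune complexes, against 12733.3 and 14331.8 with LPS. Both arrays with immune complexes were below both LPS arrays, by a small margin, and the log2 difference was -0.31 ± 0.26 (limma adjusted p = 1), and -0.19 without LPS_IC replicate 1. Irf5, a TLR-activated factor linked to inflammatory cytokine genes, read 3386 and 3782.9 with immune complexes, against 3399.6 and 4363.1 with LPS on its brighter probe set. Those groups overlapped, and the log2 difference was -0.11 ± 0.32. The dimmer Irf5 probe set also overlapped, with 83.5 and 161.2 with immune complexes, against 121.4 and 112.2 with LPS, and its log2 difference was 0.01 ± 0.62, or 0.38 without LPS_IC replicate 1.

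Irf1, the activator that interferon-gamma induces, had nearly the same mean in both groups. It read 14998.9 and 16457.5 with immune complexes and 16592.8 and 15304.9 with LPS, a log2 difference of -0.02 ± 0.24. The groups overlapped, and the sign turned with quantile normalization (0.11) and without LPS replicate 1 (0.04) or LPS_IC replicate 1 (0.05). Irf2, which competes with IRF1 at the same sites and is known mainly as a repressor, read 695.3 and 925 with immune complexes, against 1006.4 and 1271.6 with LPS. Both arrays with immune complexes were below both LPS arrays, and the log2 difference was -0.48 ± 0.39 (limma adjusted p = 1), with -0.28 without LPS_IC replicate 1 and -0.32 without LPS replicate 2. Irf9, a DNA-binding subunit of the complex that type I interferons activate, read 1566.7 and 1616.4 with immune complexes, between the LPS readings of 1829 and 1292.3. Its log2 difference was 0.05 ± 0.36, and the sign turned with median centring (-0.15) and without LPS replicate 2 (-0.20).

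Irf4 and Irf8, the relatives that pair with PU.1, had differences of opposite sign. The brighter Irf4 probe set read 433.7 and 834.5 with immune complexes, against 20.5 and 363.1 with LPS. The LPS arrays were far apart, and the higher of them was near the lower array with immune complexes. The log2 difference was 2.14 ± 0.76 with limma adjusted p = 1, and it rested on LPS replicate 1. Without that array it was 0.69, and without LPS replicate 2, which leaves the reading of 20.5 as the lone LPS array, it was 3.60. Without LPS_IC replicate 1 it was 2.59. The dimmer Irf4 probe set read 204.6 and 213.1 with immune complexes and 83.7 and 46.5 with LPS. Its LPS mean of 65.1 lay below the filter limit of 69.7, so it passed the filter only through the group with immune complexes. Its arrays lay close together within the group with immune complexes, and both were above both LPS arrays. Its log2 difference was 1.34 ± 0.61, it was 1.36 without LPS_IC replicate 1, and it ranged from 1.06 to 1.62 over the 4 fits that leave out an array.

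Irf8, a factor of the macrophage lineage that interferon-gamma raises further, read 8089.4 and 12960.5 with immune complexes, against 15783.5 and 17641 with LPS on its brighter probe set. The mean was 10525 ± 3444 with immune complexes and 16712 ± 1313 with LPS (SD, n = 2), and the log2 difference was -0.70 ± 0.29, or 1.63-fold lower. The second probe set read 4965.6 and 8812.9 with immune complexes, against 9463 and 13288.7 with LPS, a log2 difference of -0.76 ± 0.33. Neither overlapped between groups, and neither passed, each with limma adjusted p = 1. The difference depended on LPS_IC replicate 1, the lowest array for both probe sets: without LPS_IC replicate 1 the log2 differences were -0.36 and -0.35, and without LPS_IC replicate 2 they were -1.04 and -1.17. Both probe sets target 1 gene, so they are not independent measurements of the cells.

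**Figure D3:**
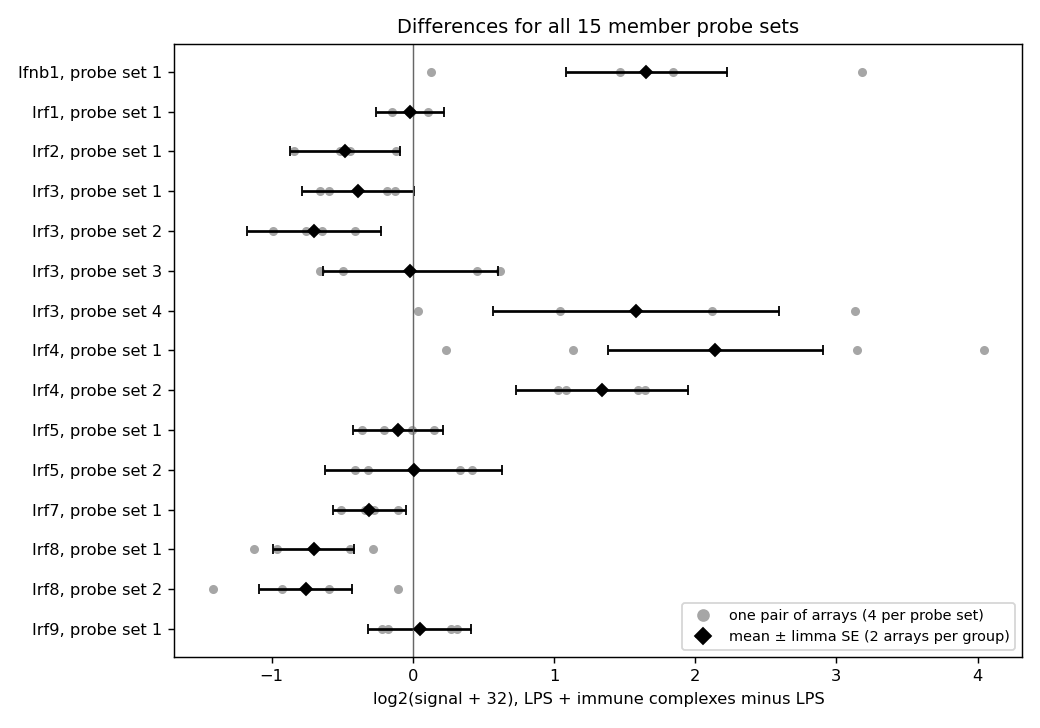
Difference of log2(signal + 32), LPS plus immune complexes minus LPS, for all 15 member probe sets, numbered from the brightest within each gene. Grey points are the 4 pairs of arrays and diamonds the mean with limma's SE; both Irf4 probe sets lie above 0 and both Irf8 probe sets below 0 in all 4 pairs, while the Irf3 probe sets lie on both sides.

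By brightest probe set, 4 of the 9 genes were lower in all 4 pairs (Irf2, Irf3, Irf7 and Irf8). The 2 higher were Ifnb1 and Irf4. Among all 12891 tested genes 13.1% were lower and 13.2% higher. The 4 Irf3 probe sets disagree, so Irf3 is placed by its brightest alone. Over the 15 probe sets, which share genes, 6 were lower, 4 were higher and 5 overlapped. The 4 higher ones include the dimmer Irf4 and the dimmest Irf3 probe sets, which passed the filter only through the group with immune complexes. The lower share depends on brightness: among genes with a mean signal of 1000 or more, a limit chosen after the values were seen, 22.7% were lower and 9.92% higher in all 4 pairs. Of the 6 members in that range 2 were lower and 1 was higher. The median log2 difference was -0.10 over the 9 members, -0.13 over those bright genes and 0.05 over all 12891. By brightest probe set no member was at least 1.5-fold higher or lower in all 4 pairs, against 2.08% and 0.869% of all genes. The dimmer Irf4 probe set was at least 1.5-fold higher, with log2 differences of 1.03 to 1.64 over the pairs. It passed the filter only through the group with immune complexes, and the share over all probe sets was not computed.

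**Figure D4:**
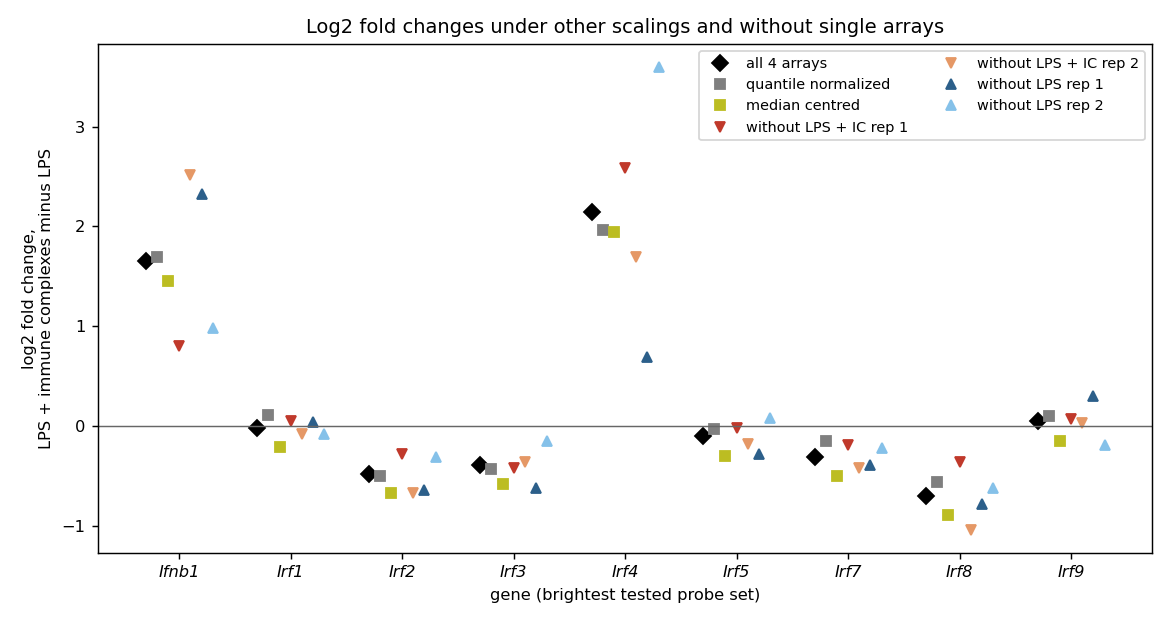
Log2 fold change, LPS plus immune complexes minus LPS, of the brightest probe set of each gene with all 4 arrays, with 2 other scalings, and without each array in turn. Ifnb1 lies between 0.80 and 2.51 and Irf4 between 0.69 and 3.60, Irf8 lies between -1.04 and -0.36, and Irf1, Irf5 and Irf9 lie on both sides of 0.

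The 5 genes whose pattern over the 4 arrays was nearest to that of Ifnb1, by Euclidean distance between centred log2 values, were Igsf23, 5430402O13Rik, Rims3, Nxf2 and Tmem132c, at distances of 0.17 to 0.32. Their mean signals lay between 86.1 and 115. Means over the LPS arrays ran from 24.75 for Nxf2 to 39.9 for Igsf23, all below the filter limit. Each of the 5 thus passed the filter only through the group with immune complexes. Igsf23 read 298.4 and 80.4 with immune complexes and 68.6 and 11.2 with LPS, and each of the 5 had its highest reading on LPS_IC replicate 1. That array has raised low signals, and its part in these likenesses was not tested. The mean signal of Ifnb1 was 1919.

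Genes around the members were read from 6 lists, with 45 genes bright enough to test of 70 listed. None passed over all probe sets in either direction, and 5 of the 45 had an unadjusted limma p under 0.05, beside 2.81% of all tested probe sets. These 45 are genes by brightest probe set and mostly bright, and the share over such genes was not computed. Of the 45, 17 were lower and 1, Jun, was higher in all 4 pairs, beside 13.1% and 13.2% of all genes, and the median log2 difference was -0.21. Of the 40 with a mean signal of 1000 or more, 16 were lower in all 4 pairs beside the 22.7% of all such genes.

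Upstream of IRF3, 7 tested genes of the TRIF arm had a median log2 difference of 0.01. Of these, 1 was lower in all 4 pairs, beside 13.1% of all genes and 22.7% of those with a mean signal of 1000 or more. That gene was Ikbke, the kinase related to TBK1, with 2926.7 and 4727.9 with immune complexes and 5747.3 and 8213.4 with LPS, a log2 difference of -0.88 ± 0.34, and -0.54 without LPS_IC replicate 1. Tank, a scaffold for these kinases, had 0.64 ± 0.44, but 0.0095 without LPS replicate 2. Ticam1, which encodes TRIF, had 0.42 ± 0.51, but -0.32 without LPS replicate 1. Of the 6 tested partners at the Ifnb1 promoter, 3 were lower and 1, Jun, was higher in all 4 pairs. All 6 had a mean signal of 1000 or more, a range where 22.7% of genes were lower and 9.92% higher. Jun, a subunit of AP-1, read 2088.3 and 1225.5 with immune complexes, against 925.2 and 640.6 with LPS. Its log2 difference was 1.03 ± 0.41, or 0.65 without LPS_IC replicate 1, and like Ifnb1 it was higher on replicate 1 than on replicate 2 in both groups. The coactivator Ep300 had -0.56 ± 0.38 and the NF-kB subunit Rela -0.43 ± 0.30, which was -0.12 without LPS replicate 2.

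Downstream of the ligand, 4 of 8 tested genes for receptors, kinases and STATs were lower in all 4 pairs and none higher. All 8 had a mean signal of 1000 or more, a range where 22.7% of genes were lower and 9.92% higher. Ifnar1, a chain of the receptor for interferon beta, had a log2 difference of -0.71 ± 0.38, Ifngr2, a chain of the interferon-gamma receptor, -0.62 ± 0.39, and the kinase Jak2 -0.60 ± 0.31. Each was closer to 0 with 1 array left out: Ifnar1 had -0.25 and Jak2 -0.22 without LPS_IC replicate 1, and Ifngr2 had -0.20 without LPS replicate 1. Of the 9 tested IRF partners and modifiers 4 were lower in all 4 pairs, beside 13.1% of all genes and 22.7% of those with a mean signal of 1000 or more. Batf3, an AP-1 factor that works with IRF8 in dendritic cells, had -1.09 ± 0.48, Trim21, a ubiquitin ligase acting on IRF proteins, -0.91 ± 0.38, and Myd88, the adaptor through which IRF5 and IRF7 are engaged, -0.75 ± 0.34. Without LPS_IC replicate 1 Batf3 had -0.53 and Myd88 -0.30, and without LPS replicate 1 Trim21 had -0.53. The 13 tested early interferon-stimulated genes had a median of -0.21, with 5 lower in all 4 pairs, beside -0.13 and 22.7% for genes with a mean signal of 1000 or more, as all 13 had. Mx1, an antiviral GTPase, had -0.70 ± 0.32, Usp18, a brake on the receptor, -0.62 ± 0.39, and the chemokine Cxcl10 -0.43 ± 0.25. Mx1 had -0.26 without LPS_IC replicate 1, and without LPS replicate 1 Usp18 had 0.03 and Cxcl10 -0.21. None of these 13 was higher in all 4 pairs at 2 h, beside 9.92% of all genes with a mean signal of 1000 or more.

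Of the other interferon genes on the array only 2 passed the filter. Ifna2 read 641.7 and 17.9 with immune complexes and 313.4 and 165.8 with LPS, and Ifna5 read 133.1 and 10.5 with immune complexes and 169.3 and 10.3 with LPS. In both the spread within a group exceeded the difference between groups, with log2 differences of -0.51 ± 0.92 and -0.14 ± 1.17. Ifng itself read at most 60.5.

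**Figure D5:**
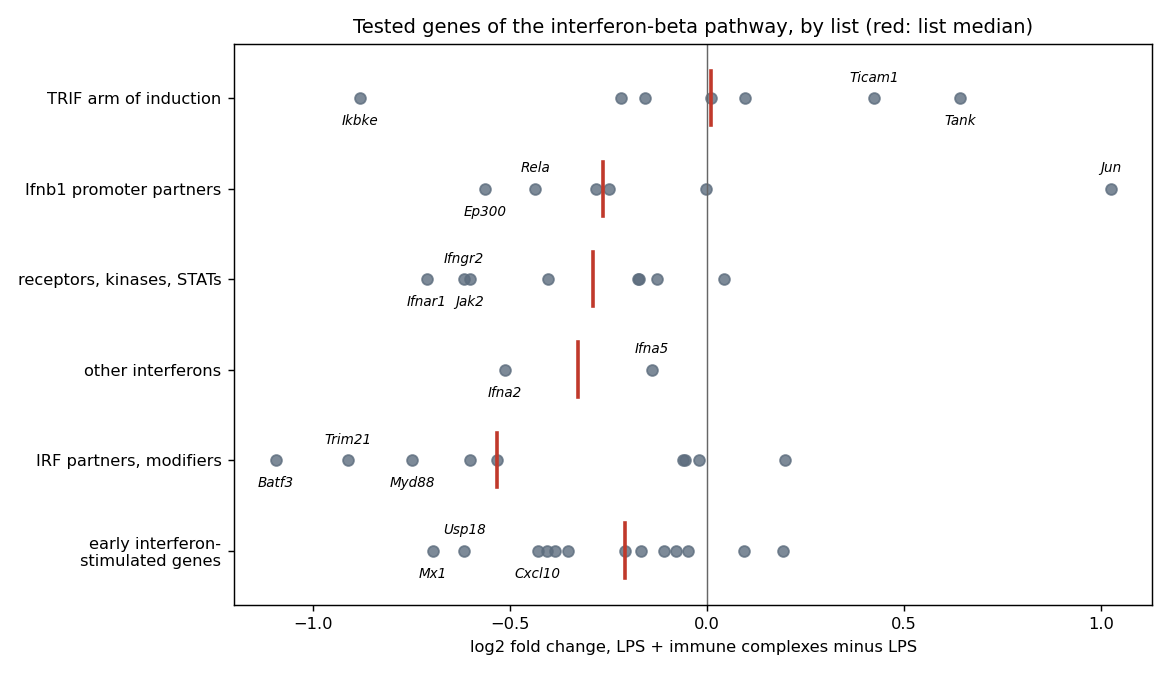
Log2 fold change, LPS plus immune complexes minus LPS, of the 45 tested pathway genes in 6 lists, each point a gene by its brightest probe set, with the list median in red. Medians lie between -0.53 and 0.01, and the named genes are those with the largest differences in each list.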

How the data were processed

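RNA from 4 macrophage samples was measured on a mouse Affymetrix array with 45037 probe sets and 64 controls. The deposited values are linear intensities made with MAS 5.0, per the submitters' processing notes, 1 per probe set and array, without detection calls. Each array was scaled as a whole, and no genome build is given in the sources used here. Array number limits precision. Groups and replicate numbers came from the titles. Values were transformed to log2(signal + 32), which understates differences of dim probe sets. Probe sets with a mean signal under the 40th percentile were left out, leaving 27022 with mean signals from 69.7 up. Differences are LPS plus immune complexes minus LPS, tested two-sided by limma 3.58.1 under R 4.3.3, with a variance trend and no block. Each adjusted p is from this fit unless another fit is named. The method was tested on simulated data with independent noise for each probe set and array. The planted differences were larger than most member differences, so that test does not tell how often those would be called. A gene took its brightest tested probe set.

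GEO's annotation named 1 gene for 34945 probe sets, several for 932 and none for 9160, and the gene IDs of 34741 of the first were in RefSeq's GRCm38.p6 table, which also gave the promoters. All 9 members matched. The members and lists were chosen with earlier results of these data known. All members were named, and from each list those past the threshold, then the 3 largest differences, plus the 5 genes nearest to Ifnb1. Alternatives covered scaling, pseudocount, filter, variance trend, replicate block, threshold, probe set choice and each array left out.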

Additional observations from a re-analysis of the deposited data

How the results depend on the processing

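The count of member probe sets past the threshold was 0 under both other scalings, both other pseudocounts (1 and 100), both other filters, without the variance trend, at adjusted p under 0.1 and without probe sets ending in _x_at or _s_at. It was 4 with a replicate block, and 0 to 1 without each array in turn. The titles give the numbers, and same-numbered arrays deviated together (r = 0.38 over tested probe sets), but with 2 pairs and no label of a shared batch the numbers were not taken as pairing. In the replicate block fit the prior degrees of freedom were infinite, so the spread of the single probe set played no part. The 4 were Ifnb1 (limma adjusted p = 6.74e-08), the brighter Irf4 probe set (1.93e-05) and both Irf8 probe sets (0.0011 and 0.00129). That is 4 of 15, beside 404 higher and 267 lower of all 27022 tested probe sets. Of the named pathway genes, 7 passed with the block: Ikbke (0.000687), Mx1 (0.00245), Myd88 (0.00337), Trim21 (0.00839), Jun (0.0119), Jak2 (0.0309) and Usp18 (0.04). These genes were named for the largest differences in their lists in these same data, so 7 is not a share of the 45 tested. Over all probe sets, 12 were higher and 2 lower in the fit without a block. With quantile normalization and without the variance trend limma called 0 and 0, with median centring 33 and 14, with pseudocount 1 20 higher, with pseudocount 100 6 and 0, without a filter 68 and 21, at the 60th percentile 4 and 0, with the block 404 and 267, and without each array 0 to 77 and 0 to 32. The median of the members was -0.30 with median centring, where that of all genes was -0.15, and -0.28 to -0.026 without each array. With each array left out, the count of members at least 1.5-fold different in the same direction was higher than over 4 pairs. Only 2 pairs then remain, a looser demand, and the share of all genes meeting it was not computed. Among probe sets near 0 the sign turned for Irf1 (0.11 with quantile normalization, -0.087 to 0.046 without each array), the dimmer Irf5 probe set (-0.32 with quantile normalization, -0.19 with median centring, -0.0078 with pseudocount 1, -0.36 to 0.38 without each array), Irf9 (-0.15 with median centring, -0.20 to 0.29), the third Irf3 probe set (0.0093 with pseudocount 100, -0.57 to 0.54) and the brighter Irf5 one (-0.28 to 0.074). Among pathway genes without each array it turned for Ticam1 (-0.32 to 1.17), Ifna2 (-2.39 to 1.37), Ifna5 (-1.26 to 0.99) and Usp18 (-1.26 to 0.033), and the cause was not tested. Ifnb1, Irf2, Irf4, Irf7 and Irf8 kept their sign under each of these alternatives. Where an array is left out, the lone array of its group is taken to vary as the other group does. Dim signals, those of Irf4 included, limit what these arrays can show.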
